A study of Gallus gallus with 6 samples.

Results

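Traffic between the nucleus and the cytoplasm passes through nuclear pores, large ring-shaped assemblies of nucleoporins set in the nuclear envelope. Importins carry cargo in and exportins carry cargo out. The small GTPase Ran is loaded with GTP in the nucleus, and that GTP is hydrolysed in the cytoplasm. The state of Ran tells a receptor when to bind and when to release its cargo. Dividing vertebrate cells take their pores apart at mitosis and rebuild them afterwards, and several of these proteins also work on chromosomes or the spindle during division. Skeletal myoblasts, the single precursor cells of muscle, stop dividing as they fuse into myotubes.

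The genes described here encode nucleoporins, importins, exportins and regulators of Ran. They were chosen by their symbols, which had to begin with NUP, KPNA, KPNB, IPO, XPO, TNPO, RANBP or NXT or to be RAN, RANGAP1, RCC1, TPR, AAAS, NDC1, POM121 or CSE1L. The rule matched 46 of the 26591 gene entries of the tables. No expression value entered the rule, but the set was proposed when the difference between myoblasts and myotubes in these libraries was already known. The differences below are therefore a description of that contrast and no test of the set.

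The study sequenced RNA from primary skeletal muscle cells of chicken (Gallus gallus) embryos at passage 1, with 3 libraries of dividing myoblasts and 3 of differentiated myotubes. The growth medium of the myoblasts was RPMI-1640 plus 15% fetal bovine serum. Myotubes were obtained in RPMI-1640 plus 2% horse serum, and both media contained 2% penicillin and streptomycin. No label names a transgene, a drug or a clone. The kind and amount of serum therefore changed together with the state of the cells and cannot be told apart from it. The labels give no breed, embryo age, sex or time in differentiation medium and do not say whether the libraries of a group came from separate cultures, so a test measures the spread between libraries, which may be technical.

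Libraries held between 21893152 and 27546527 counts. A gene was called when edgeR's quasi-likelihood test, run on the counts of all 15959 genes that passed a filter on low counts, gave a Benjamini-Hochberg adjusted p under 0.05. Below, "fell" and "rose" are used of called genes only, with myotubes compared to myoblasts. All 15 muscle markers looked up were detected in both groups, and 11 fell in myotubes, 4 had no call and none rose. The falls were of different kinds. MYF5, Pax-7, MYOD1 and MYF6 encode myogenic transcription factors, and MYF5 and Pax-7 mark cells before differentiation. MYF5 was at 359.8, 335.9 and 185.2 FPKM in myoblasts and 34.1, 46.7 and 30.1 FPKM in myotubes, and Pax-7 at 91.5, 84.3 and 64.3 against 17.8, 24.3 and 19.3 FPKM. The other 7 (DES, MYBPH, UNC45B, CSRP3, TNNI2, MYH15 and CHRND) are genes of differentiated muscle, and their fall goes against the myotube label. CSRP3, a muscle LIM protein of contracting fibres, was at 62.4, 59.2 and 116.3 FPKM in myoblasts and 6.09, 4.17 and 3.36 FPKM in myotubes. MYOG, the myogenic factor of differentiating cells, had no call (286.9, 286.8 and 526.4 against 298.3, 327.7 and 273.7 FPKM), and neither had CDH15, TNNT3 and TMEM8C. The groups are called by their labels below.

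Dividing cells and other cell types were also marked differently in the groups. Every one of the 21 mitosis genes tested fell, with a median log2 change of -2.30. Of 10 fibroblast markers tested 9 rose and 1 fell, and the list summed to 1073 to 1873 FPKM in myoblasts against 4154 to 4866 in myotubes. Of 6 smooth muscle markers 5 rose and 1 fell, with sums of 284.7 to 390.3 against 1185 to 1588 FPKM. Fewer markers rose than fell for endothelium (3 of 6 fell, 5.28 to 7.42 against 1.63 to 2.10 FPKM), cartilage (2 of 3 fell, 3.56 to 4.15 against 1.62 to 2.25), epithelium (4 of 4 fell, 34.7 to 83.3 against 14.5 to 16.2), erythroid cells (4 of 5 fell, 25.7 to 80.5 against 4.0 to 4.74, with HBZ at 0 in all libraries) and nerve (4 of 6 fell and 1 rose, 50.4 to 66.8 against 24.1 to 27.8). Of 10 leukocyte markers 3 rose and 1 fell (101.9 to 222.8 against 186.6 to 210.9 FPKM). Of 5 adipocyte markers 2 rose and 1 fell (130.0 to 241.7 against 181.8 to 241.9 FPKM). Both sums overlapped between the groups through myoblast replicate 3 alone (222.8 and 241.7 FPKM). Myoblast replicates 1 and 2, at 101.9 and 111.0 FPKM for leukocytes and 130.0 and 167.1 for adipocytes, lay below every myotube library. The part of cell type make-up in the results below was not tested, and in such bulk RNA fewer cells of a type and less RNA per cell cannot be told apart.

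Most genes of nuclear transport were lower in myotubes. Of the 46 genes, 45 passed the filter, and of these 32 fell, 2 rose and 11 had no call. Over all genes tested 59.1% were called, 29.1% falling and 30.0% rising. The median log2 change was -0.48 over the 45 genes and 0.0003 over all genes tested. In 35 genes every myotube library had a lower FPKM than every myoblast library, in 3 every myotube library had a higher one, and in 7 the groups overlapped, where 35.8% and 31.0% of all tested genes were separated downward and upward. Without myoblast replicate 3, which stands apart below, 33 fell and 2 rose. In that fit 4911 of all 16271 genes tested fell and 5089 rose. The FPKM of the 46 genes summed to 2923, 2925 and 2590 in the myoblast libraries and to 1945, 1995 and 1989 in the myotube libraries, each in the order of the replicate numbers used throughout.

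A fall of at least 2-fold was called in 6 of the 45 genes, which is 13.3%, close to the 11.8% of all tested genes. These were KPNA2, RCC1, NDC1, NUP210, NUP58 and RANGAP1. Among the 45 genes the log2 change ran from -2.63 for KPNA2 to 0.59 for AAAS. KPNA2 was the one gene beyond -1.21.

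**Figure D1:**
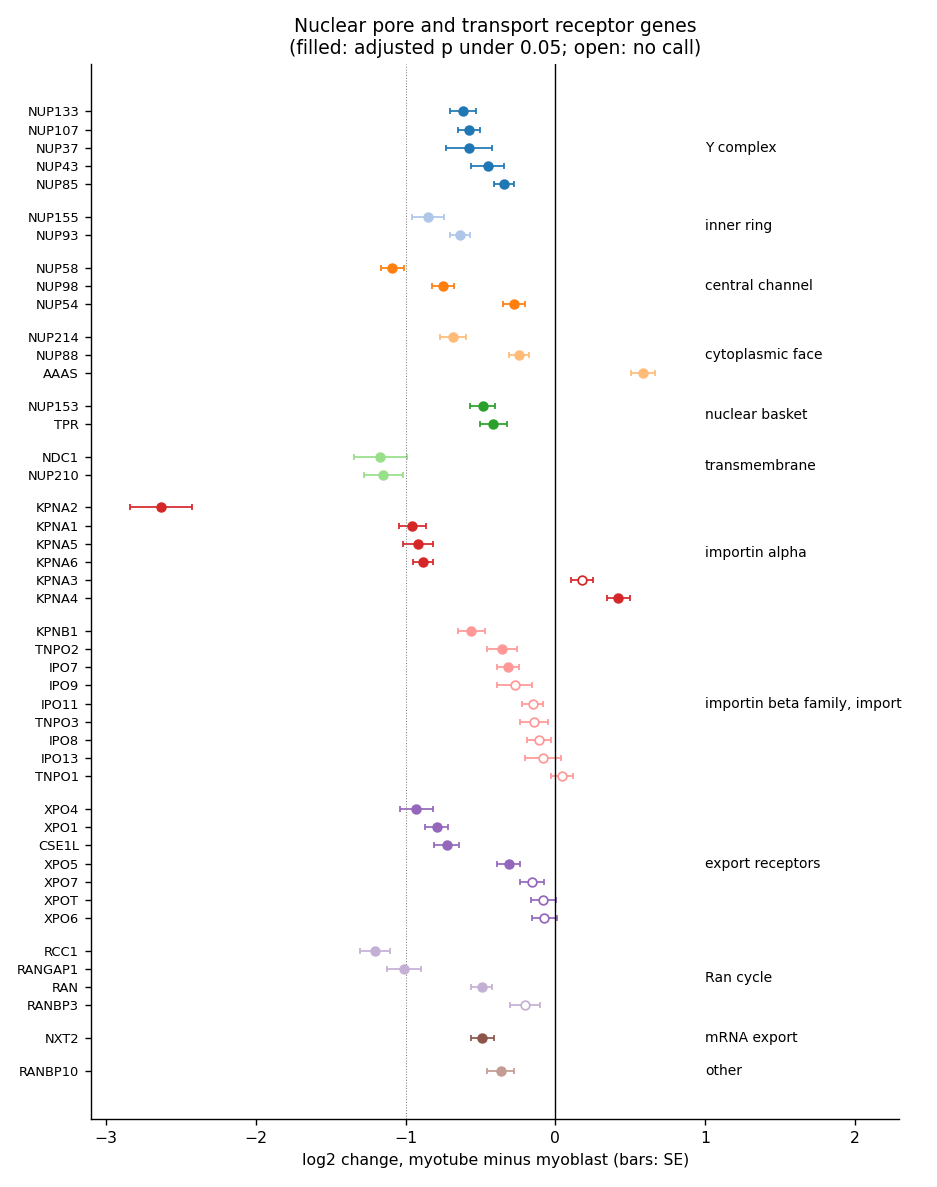
Log2 change (myotube minus myoblast, x axis) of the 45 tested genes, grouped by role, with SE as bars; filled points were called at an adjusted p under 0.05 and open points were not. KPNA2 stands apart at -2.63, KPNA4 and AAAS are the 2 genes called higher, and the uncalled genes are mostly import receptors of the importin beta family and export receptors.

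Importin alpha proteins are the adaptors that recognise the classical nuclear localisation signal and hand the cargo to importin beta. The 7 importin alpha genes had the widest range of log2 changes of the roles, -2.63 to 0.42, with 4 falling, 1 rising, 1 without a call and 1 not tested. The shares over all tested genes were 29.1% falling and 30.0% rising. KPNA2, which in mouse is abundant in stem cells and in dividing cells, lies on chromosome 18, 7053034 to 7058678, minus strand. It was at 209.7, 211.7 and 116.1 FPKM in the myoblast replicates and at 26.4, 28.9 and 27.5 FPKM in the myotube replicates. Myoblast replicate 3 was well below the other myoblast libraries and still above every myotube library. The fitted log2 change was -2.63 ± 0.21 (SE), a 6.21-fold fall.

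KPNA1, KPNA5 and KPNA6, a subfamily of closely related adaptors, fell by similar amounts. KPNA1 was at 27.9, 25.9 and 29.8 FPKM in myoblasts and 13.1, 13.7 and 14.7 FPKM in myotubes, a log2 change of -0.96 ± 0.09 (SE). KPNA5 was at 16.6, 18.0 and 16.8 FPKM against 8.15, 8.45 and 9.52 FPKM, with -0.92 ± 0.10. For KPNA6 the values were 59.1 ± 0.646 FPKM in myoblasts and 30.9 ± 0.706 FPKM in myotubes (mean ± SD, n = 3 each), with -0.88 ± 0.07. In none of the 3 did the groups overlap, and 35.8% of all tested genes were likewise separated downward.

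KPNA4 and KPNA3, which form another subfamily, did not follow. KPNA4 (chromosome 9, 22212627 to 22235709, plus strand) was at 120.4, 117.3 and 121.9 FPKM in myoblasts and rose to 161.3, 150.3 and 151.3 FPKM in myotubes, a log2 change of 0.42 ± 0.08 (SE). KPNA3 was at 29.4, 27.4 and 27.4 FPKM in myoblasts and at 31.5, 29.5 and 30.7 FPKM in myotubes. All 3 myotube values of KPNA3 lay above all 3 myoblast values, but the gene had no call at a log2 change of 0.18 ± 0.07. KPNA7, an adaptor of oocytes and early embryos in mammals, had 4, 1 and 1 counts in myoblasts and 1, 3 and 0 in myotubes and was not tested.

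The make-up of the importin alpha pool, as the share of summed importin alpha FPKM, differed accordingly. KPNA2 held 45.3%, 46.0% and 31.3% of it in the myoblast libraries, against 9.73%, 11.1% and 10.4% in the myotube libraries. KPNA4 held 26.0%, 25.5% and 32.9% in myoblasts and 59.4%, 57.6% and 57.1% in myotubes. KPNA2 was thus the highest importin alpha gene in myoblast replicates 1 and 2, KPNA4 was slightly above it in myoblast replicate 3, and KPNA4 was highest in every myotube library. The ratio of KPNA2 to KPNA4 in FPKM was 1.74, 1.81 and 0.952 in myoblasts and 0.164, 0.192 and 0.182 in myotubes. By raw counts, without the length scaling, KPNA2 held 31.3 ± 7.29% of the family in myoblasts and 7.08 ± 0.466% in myotubes (mean ± SD, n = 3 each), and KPNA4 29.8 ± 3.26% and 55.1 ± 1.15%. The summed FPKM of the family was 463.1, 459.9 and 370.5 in myoblasts and 271.7, 261.0 and 265.1 in myotubes.

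**Figure D2:**
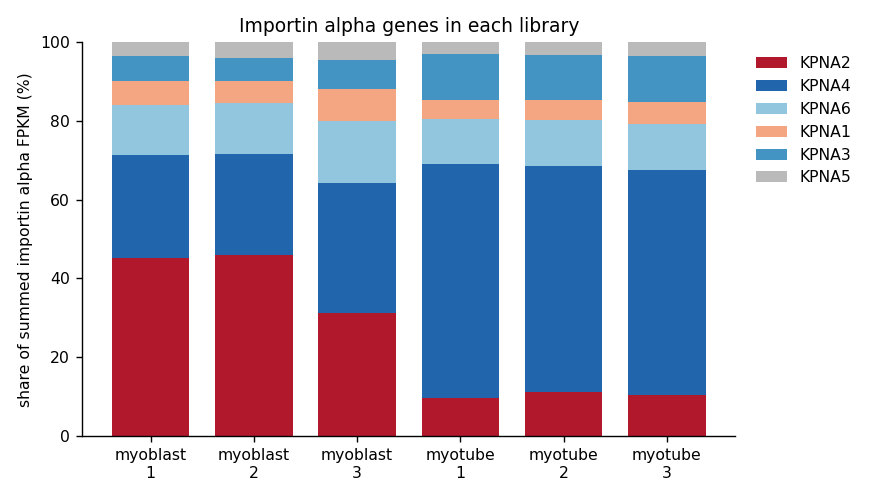
Share of the summed importin alpha FPKM (y axis, percent) held by KPNA1 to KPNA6 in each library; KPNA7, at a mean of 0.052 FPKM in myoblasts and 0.037 FPKM in myotubes, is not drawn. KPNA2 takes 31.3% to 46.0% in the myoblast libraries and 9.73% to 11.1% in the myotube libraries, where KPNA4 takes 57.1% to 59.4%.

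Receptors of the importin beta family carry cargo into the nucleus themselves, and KPNB1 also does so together with an importin alpha. Of the 9 import receptors, 3 fell and 6 had no call. Over all tested genes 29.1% fell and 35.8% were separated downward in FPKM. Their median log2 change was -0.15. KPNB1, importin beta itself (chromosome 27, 4030720 to 4050040, minus strand), was at 136.0, 129.0 and 111.3 FPKM in myoblasts and 82.3, 85.2 and 77.8 FPKM in myotubes, with no overlap and a log2 change of -0.56 ± 0.09 (SE). IPO7, a carrier of ribosomal proteins and histone H1, was the most abundant import receptor in FPKM. Its values were 279.8, 273.9 and 274.3 FPKM in myoblasts and 201.7, 213.2 and 225.3 FPKM in myotubes, with -0.32 ± 0.07. TNPO2, a transportin for proteins with PY-type signals, was at 111.8, 94.6 and 100 FPKM in myoblasts and 80.7, 80.5 and 69.3 FPKM in myotubes, with -0.36 ± 0.10. Neither overlapped, but TNPO2 lost its call without myoblast replicate 1 or myotube replicate 3.

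The 6 import receptors without a call ran from -0.27 to 0.043 in log2 change. TNPO1, the paralogue of TNPO2, was at 35.9, 34.1 and 32.0 FPKM in myoblasts and 31.8, 34.1 and 35.2 FPKM in myotubes, a log2 change of 0.043 ± 0.07 (SE) that turned to -0.014 when scaled by library totals. TNPO3, which imports SR splicing factors, was at -0.14 ± 0.09, IPO8, the paralogue of IPO7, at -0.11 ± 0.08, and IPO11 at -0.15 ± 0.07. Of the 6, IPO11 alone had every myotube library (23.7, 24.1 and 24.5 FPKM) below every myoblast library (28.8, 28.2 and 26.5 FPKM). IPO13, which works in both directions, was at -0.083 ± 0.12, and without myoblast replicate 3 its direction turned (0.026). IPO9, a carrier of core histones, stood at 28.2, 28.7 and 20.6 FPKM in myoblasts and 18.9, 21.5 and 21.2 FPKM in myotubes, so that myoblast replicate 3 lay within the myotube range. It had no call at -0.27 ± 0.12, and was called at -0.40 without that library.

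Of the 7 export receptors 4 fell and 3 had no call, with log2 changes that ran from -0.93 for XPO4 to -0.073 for XPO6. Among all tested genes 59.1% were called, with 29.1% falling, and 35.8% were separated downward in FPKM. XPO1, the general carrier for leucine-rich export signals (chromosome 3, 2356977 to 2398915, minus strand), was at 83.8, 84.7 and 74.5 FPKM in myoblasts and 42.9, 44.3 and 47.6 FPKM in myotubes, a log2 change of -0.79 ± 0.08 (SE). CSE1L, which returns empty importin alpha to the cytoplasm (chromosome 20, 6595596 to 6614383, plus strand), was at 74.0, 74.7 and 61.0 FPKM in myoblasts and 39.3, 40.3 and 42.1 FPKM in myotubes. Its log2 change was -0.73 ± 0.09, and neither gene overlapped between the groups.

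XPO4, known for exporting the translation factor EIF5A, showed the largest fall of the family at -0.93 ± 0.11 (SE), with 17.7, 17.0 and 15.4 FPKM in myoblasts and 7.15, 8.39 and 9.75 FPKM in myotubes. XPO5, the carrier of microRNA precursors, fell by less, from 70.5 ± 5.30 to 54.6 ± 2.39 FPKM (mean ± SD, n = 3 each) at -0.31 ± 0.08. XPOT, the tRNA exporter, was at 105.2, 113.7 and 91.0 FPKM in myoblasts and 91.0, 95.2 and 95.2 FPKM in myotubes, which overlap, with no call at -0.08 ± 0.08. XPO6, the exporter of actin with profilin, and XPO7 had no call either, at -0.073 ± 0.08 and -0.15 ± 0.08, but XPO7 did not overlap between the groups (31.3, 29.4 and 31.6 against 27.7, 26.7 and 25.5 FPKM). XPOT took 32.8 ± 0.395% of summed export receptor FPKM in myotubes against 26.4 ± 1.04% in myoblasts, and XPO1 15.7 ± 0.440% against 20.7 ± 0.243%. By raw counts XPOT took 16.5 ± 0.237% against 12.7 ± 0.638% and XPO1 26.3 ± 0.707% against 33.2 ± 0.139%, so the direction of both was the same on either scale but the order of the genes was not.

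Of the Ran cycle genes, the pair that sets the gradient fell the most. RCC1, the exchange factor that loads Ran with GTP on chromatin (chromosome 23, 2153100 to 2156682, plus strand), was at 85.9, 93.6 and 72.3 FPKM in myoblasts and 32.7, 37.6 and 34.6 FPKM in myotubes, a log2 change of -1.21 ± 0.10 (SE). RANGAP1, which triggers GTP hydrolysis on the cytoplasmic side (chromosome 1, 49768544 to 49787684, plus strand), was at 54.7, 52.5 and 39.9 FPKM in myoblasts and 23.7, 23.8 and 22.5 FPKM in myotubes, a log2 change of -1.01 ± 0.11. Every myotube value of both genes was below every myoblast value, as in 35.8% of all tested genes. RAN itself had the highest FPKM of all 46 genes in both groups and fell less, from 407.3, 430.6 and 373.4 to 272.5, 282.3 and 272.9 FPKM, a log2 change of -0.49 ± 0.07. RANBP3, a cofactor of XPO1, had no call at -0.20 ± 0.10, although its groups did not overlap (42.1, 42.8 and 49.0 against 33.7, 38.8 and 39.9 FPKM).

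**Figure D3:**
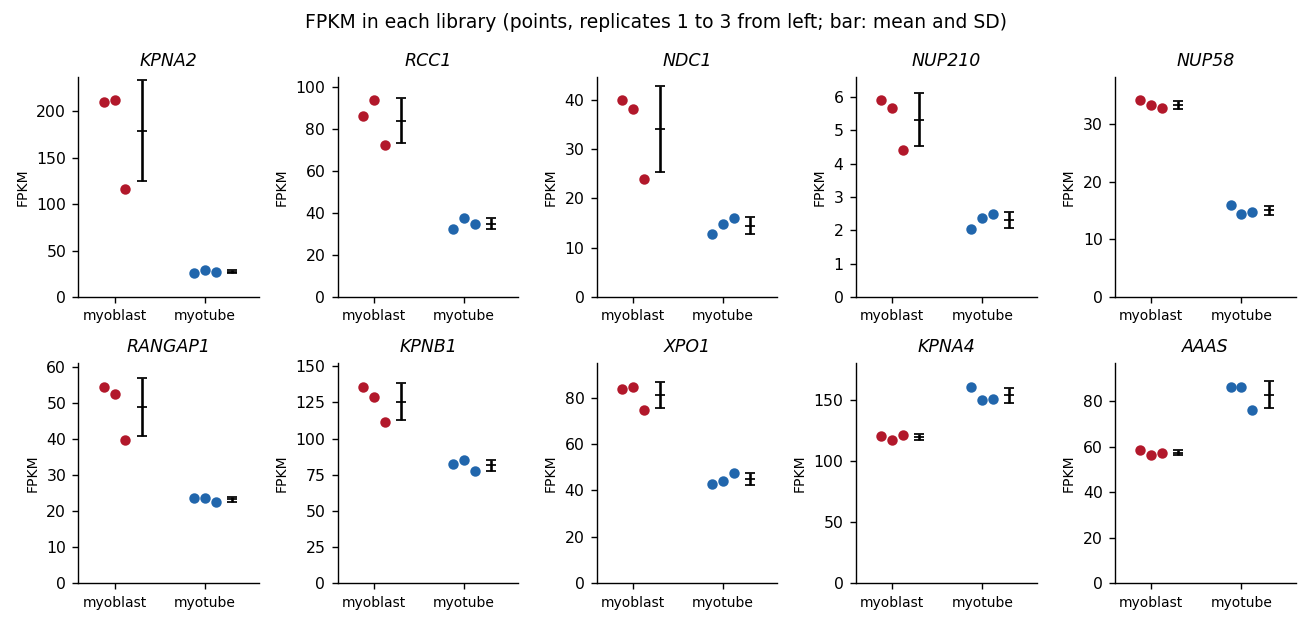
FPKM (y axis, linear from 0) of 10 genes in each library, with replicates 1 to 3 from left to right as points and the mean ± SD of each group (n = 3) as a bar. The 8 genes that fell separate the groups completely, KPNA4 and AAAS separate them in the opposite direction, and the third myoblast library is the lowest myoblast library for KPNA2, RCC1, NDC1, NUP210, NUP58, RANGAP1, KPNB1 and XPO1.

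Nucleoporins fell in every part of the pore that had an entry. Of 17 pore proteins 16 fell and 1 rose, with a median log2 change of -0.58, and no pore protein overlapped between the groups in FPKM. Among all tested genes 29.1% fell and 30.0% rose, and 35.8% and 31.0% were separated downward and upward. Their summed FPKM was 676.0, 679.4 and 596.8 in myoblasts and 462.5, 472.9 and 473.1 in myotubes.

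The transmembrane nucleoporins, which anchor the pore in the envelope, had the largest falls of the pore proteins, but NUP58 (-1.09) was close. Without myoblast replicate 1 the order turned, with NDC1 at -1.04, NUP210 at -1.07 and NUP58 at -1.08. It turned without myotube replicate 1 too, with NDC1 at -1.09, NUP210 at -1.08 and NUP58 at -1.15. NUP58 passed NDC1 alone without myoblast replicate 2 (-1.103 against -1.087). With limma on log2(FPKM + 1) it passed NUP210 alone (-1.10 against -0.93). NDC1 (chromosome 8, 25163562 to 25179731, minus strand) was at 39.9, 38.1 and 23.99 FPKM in myoblasts and 12.7, 14.8 and 16.0 FPKM in myotubes, a log2 change of -1.17 ± 0.18 (SE). It was the most variable pore protein among the myoblast libraries, and without myoblast replicate 3 its log2 change was -1.36. NUP210 (chromosome 12, 5623599 to 5682682, minus strand) had the lowest mean FPKM of the 45 tested transport genes, at 5.90, 5.66 and 4.40 FPKM in myoblasts and 2.03, 2.38 and 2.50 FPKM in myotubes. Its log2 change was -1.15 ± 0.13. In mouse myoblast lines this gene is known to be switched on during differentiation, whereas here all 3 myotube libraries had less of it than any myoblast library. Genes of differentiated muscle such as DES and CSRP3 also fell in these myotubes, so these libraries may not be comparable with those lines.

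Genes of the outer and inner rings fell moderately. In the Y complex, the outer scaffold that in human cells also sits at kinetochores during mitosis, all 5 genes under the symbol rule fell. The share falling over all tested genes was 29.1%. NUP107 was at 33.4, 35.6 and 30.4 FPKM in myoblasts and 21.6, 20.8 and 21.6 FPKM in myotubes, a log2 change of -0.58 ± 0.08 (SE). NUP133 was at 34.0, 35.3 and 28.2 FPKM against 20.2, 20.4 and 20.5 FPKM, with -0.61 ± 0.09. NUP37 varied more, at 44.7, 51.7 and 34.2 FPKM against 23.9, 27.1 and 33.0 FPKM, so that myoblast replicate 3 and myotube replicate 3 lay close to each other, with -0.58 ± 0.15. NUP43 and NUP85 fell by 0.45 and 0.34 on the log2 scale. The ratio of NUP107 to NUP133 in FPKM stayed between 0.985 and 1.08 in the 6 libraries.

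The inner ring ties the outer rings to the membrane and the channel, and both of its genes with an entry fell. Among all tested genes 29.1% fell. NUP155 was at 33.9, 33.7 and 25.6 FPKM in myoblasts and 16.4, 16.0 and 17.4 FPKM in myotubes, a log2 change of -0.85 ± 0.11 (SE). NUP93 was at 45.5, 47.7 and 45.8 FPKM against 29.0, 29.1 and 27.95 FPKM, with -0.64 ± 0.07. In both genes the myotube libraries lay close together, well under the lowest myoblast library.

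The central channel is lined by nucleoporins rich in phenylalanine and glycine, and its 3 genes fell by unequal amounts. Over all tested genes 29.1% fell. NUP58 (chromosome 1, 177067382 to 177104586, minus strand) was at 34.0, 33.2 and 32.7 FPKM in myoblasts and 15.9, 14.4 and 14.8 FPKM in myotubes, a log2 change of -1.09 ± 0.08 (SE). NUP54, its partner in the channel, was at 31.7, 31.6 and 28.8 FPKM against 23.1, 25.0 and 25.1 FPKM, with -0.28 ± 0.08. The call of NUP54 was lost without myoblast replicate 1 or myotube replicate 2. NUP98, which also has mobile copies inside the nucleus, was at 47.8, 45.3 and 42.4 FPKM against 24.7, 27.3 and 25.5 FPKM, with -0.75 ± 0.08.

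The nuclear basket is formed by filaments at the inner face of the pore. NUP153 was at 34.0, 30.1 and 29.0 FPKM in myoblasts and 21.1, 20.3 and 22.5 FPKM in myotubes, a log2 change of -0.48 ± 0.08 (SE). TPR, the main component of the filaments, was at 41.2, 38.5 and 34.0 FPKM against 25.9, 26.5 and 29.7 FPKM, with -0.41 ± 0.09. Neither overlapped between the groups, and 35.8% of all tested genes were likewise separated downward.

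On the cytoplasmic face, where export complexes are taken apart, NUP214 and its partner NUP88 fell by different amounts. NUP214 was at 27.97, 26.3 and 26.8 FPKM in myoblasts and 15.2, 15.3 and 18.2 FPKM in myotubes, a log2 change of -0.68 ± 0.09 (SE). NUP88 was at 55.9, 56.3 and 52.8 FPKM against 45.0, 45.6 and 43.6 FPKM, with -0.24 ± 0.07, and was no longer called when myotube replicate 2 or 3 was left out. AAAS, which encodes ALADIN, a nucleoporin that NDC1 holds at the pore, was the exception. It was at 58.7, 56.5 and 57.3 FPKM in myoblasts and rose to 86.6, 86.3 and 76.1 FPKM in myotubes, a log2 change of 0.59 ± 0.08. The share of AAAS in the summed pore FPKM went from 8.87 ± 0.663% to 17.7 ± 1.40%. Its entry lies on a scaffold not placed on a chromosome.

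NXT2, a partner of the main mRNA export receptor, was at 61.9, 66.7 and 58.7 FPKM in myoblasts and 42.5, 42.0 and 44.0 FPKM in myotubes, with no overlap and a log2 change of -0.49 ± 0.07 (SE). RANBP10, a Ran-binding protein also known to bind microtubules, was at 20.7, 20.0 and 22.0 FPKM against 16.1, 15.1 and 15.7 FPKM, with -0.36 ± 0.09. RANBP10 did not overlap either, but lost its call without myotube replicate 2. Among all tested genes 35.8% were separated downward.

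Among the myoblast libraries, which differ in no label other than the replicate number, replicate 3 had less of some of these genes than the others. Log2 CPM of replicate 3 was set against the mean of replicates 1 and 2. The 45 genes had a median of -0.081, with 29 below 0 and 16 above. Over all 15959 tested genes the median was -0.022, with 8439 below and 7516 above. Replicate 1 departed too when set against replicates 2 and 3, with 36 of the 45 genes above and 9 below. Its median was 0.071, against 0.012 over all tested genes. The deviation of replicate 3 was uneven. KPNA2 was lowest at -0.81, followed by NDC1 at -0.64, NUP37 at -0.44, IPO9 at -0.41 and RANGAP1 at -0.37, while IPO13 at 0.31, RANBP3 at 0.26, TNPO3 at 0.22 and KPNA1 at 0.21 were above the other libraries. The 21 mitosis genes were all below in the same library, with a median of -0.87. Of 15 muscle markers 12 were above and 3 below, with a median of 0.99. MYF5, MYF6 and Pax-7 had less FPKM in replicate 3 than in the other myoblast libraries. Cell type markers departed too. In replicates 1, 2 and 3 the leukocyte markers summed to 101.9, 111.0 and 222.8 FPKM and the erythroid markers to 31.3, 25.7 and 80.5. Epithelium was at 47.3, 34.7 and 83.3 FPKM, and fibroblast at 1756, 1873 and 1073. The adipocyte, endothelium and nerve sums were also highest in replicate 3, while those of smooth muscle and cartilage lay between the other libraries. The part of these differences in the values of KPNA2 and NDC1 was not tested. Without that library the log2 change of KPNA2 was -2.86.

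The spread within a group also differed between genes. In myoblasts the coefficient of variation over the 3 libraries was 30.5% for KPNA2, 25.6% for NDC1 and 20.2% for NUP37, and 1.09% for KPNA6, 1.19% for IPO7 and 1.97% for KPNA4. In myotubes KPNA2 varied by 4.44% and NDC1 by 11.5%.

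**Figure D4:**
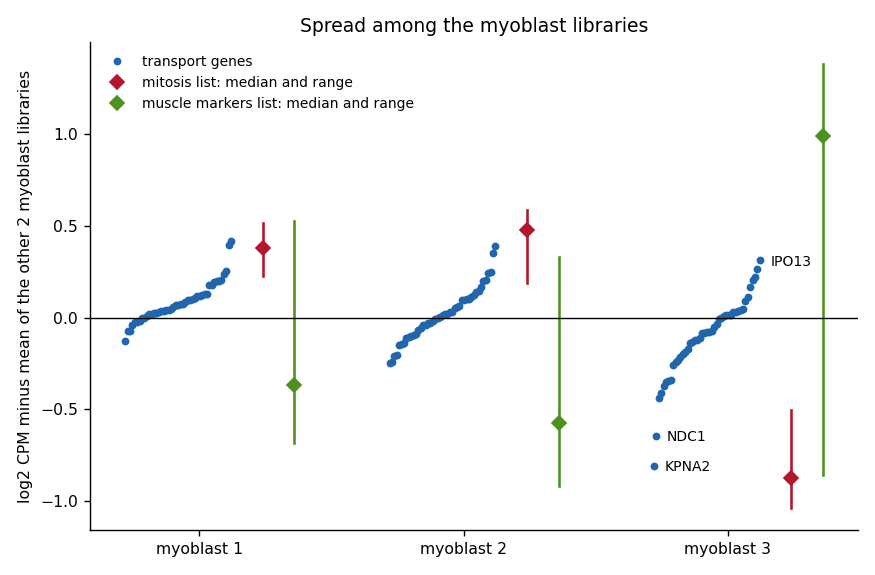
Log2 CPM of each myoblast library minus the mean of the other 2 (y axis) for the 45 tested genes (blue points, sorted within a library), with the median and range of the mitosis and muscle marker lists. In replicate 3 KPNA2 (-0.81) and NDC1 (-0.64) lie in the range of the mitosis genes (-1.03 to -0.51) and in that of the muscle markers (-0.855 to 1.379). The other transport genes lie above the mitosis range, with NUP37 (-0.44) and IPO9 (-0.41) closest to it.

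Other genes of nuclear transport, taken from lists outside the symbol rule, were looked up in the same fit. Of 8 further pore and pore-associated genes, 7 fell and 1 rose, beside 29.1% falling and 30.0% rising over all tested genes. GLE1, an mRNA export factor at the cytoplasmic face, fell from 19.1 ± 2.59 to 11.4 ± 1.23 FPKM (log2 change -0.69 ± 0.12), MCM3AP by 0.58, and AHCTF1, which seeds pores on chromatin after mitosis, by 0.53 on the log2 scale. ENY2, a small subunit shared by an mRNA export complex and the SAGA coactivator, rose from 30.7 ± 4.63 to 48.5 ± 7.07 FPKM (mean ± SD, n = 3 each, 0.71 ± 0.13). SEH1L, a further Y complex subunit whose symbol the rule does not match, fell by 0.45, close to the Y complex genes above.

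Of 9 further receptors and adaptors, 3 fell, 2 rose and 4 had no call, beside 29.1% falling and 30.0% rising over all tested genes. NCBP1, the large subunit of the nuclear cap-binding complex, fell from 56.8 ± 2.23 to 27.3 ± 1.79 FPKM (mean ± SD, n = 3 each, a 2.00-fold fall). HIKESHI, which carries heat shock protein 70 into the nucleus, rose by 0.48 ± 0.09, and NUTF2, which brings Ran back into the nucleus, was at 119.2 ± 8.43 and 121.7 ± 7.62 FPKM with no call (0.09 ± 0.09). Of 15 mRNA export genes, 9 fell, 2 rose and 4 had no call. The falls numbered 4 without myotube replicate 2, and the rises, THOC2 and FYTTD1, were not called when scaled by library totals or without any 1 of myoblast replicates 1 and 2 and myotube replicates 1 and 3. RBM15 and the adaptor ALYREF had the largest falls, at -0.93 ± 0.10 and -0.83 ± 0.08.

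The nuclear lamina and envelope, to which pores are attached, gave 8 falls, 3 rises and 8 genes without a call among 19. TMEM201 fell by 1.55, SYNE3 by 1.37, LBR, the lamin B receptor, by 1.34, and LMNB1, lamin B1, by 1.24 on the log2 scale. SUN2, which links the envelope to the cytoskeleton, rose by 0.76 ± 0.08 (SE), while SUN1 fell by 0.53. In the SUMO cycle, which modifies RANGAP1, 3 of 12 genes fell, 2 rose and 7 had no call. Of all tested genes 29.1% fell and 30.0% rose. SENP1, a SUMO protease found at the pore, fell by 0.76. The rises were SAE1 and SENP7, and leaving out any library except myoblast replicate 3 reduced them to 1.

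Some of the entries share sequence or position with others. Levels of different genes were compared in FPKM, but for 24 of the 46 genes the deposited FPKM departed by over 1% from count, listed length and total and rested on a length shorter than the listed one, by up to 1.80 times for XPOT, so an order between genes depends on that length. Fold changes of one gene are not affected, because the factor was the same in all 6 libraries. IPO13 lies within the span of B4GALT2 on the same strand, whose counts were 837.3% of those of IPO13. IPO9 shares 21530 bases with CSRP1 on the same strand. CSRP1 had 335.8% of the counts of IPO9 and a log2 change of 0.92. NDC1 shares 618 bases with YIPF1, which rose by 0.68 and had 131.6% of the counts of NDC1. RAN lies within the span of STX2 on the opposite strand, whose counts were 19.9% of those of RAN. Reads of pairs on the same strand may have been shared or dropped, as may reads common to the importin alpha paralogues. For pairs on opposite strands this depends on the strand setting of the counting, which no source used here gives. NUP62, NUP160, NUP188, NUP205, NUP35, NUP50, RANBP2, POM121, RANBP1 and IPO5 were not analysed here.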

How the data were processed

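Per the labels, RNA was extracted with Trizol and libraries followed Illumina's protocol. HISAT and HTSeq are named in the submitters' processing notes; their versions and the genome build, annotation and strand setting were not given in the sources used here. The deposited tables hold raw read counts and, beside them, the FPKM computed by the authors, for 26591 genes, after 2 text lines per table that name no gene were left out. Coordinates are those of the tables. Genes passing filterByExpr (minimum count 10, minimum total 15) were tested in R 4.3.3 with edgeR 4.0.16 (TMM, quasi-likelihood, 2 groups, no block, two-sided) with Benjamini-Hochberg adjustment over 15959 genes, and called under 0.05. SE is the size of the log2 change over the square root of F. The procedure was also run on simulated counts. Far fewer genes were changed in them than were called here, so that run says little about a contrast this wide.

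All 46 genes are listed with their call. Values in every library were due for up to 3 genes per role with the largest change and a mean of at least 1 FPKM, every gene called at 2-fold or more, and KPNA2, KPNB1, XPO1, CSE1L, RAN, RCC1, RANGAP1, NUP210, NUP107, NUP153, NUP62 (no entry) and TPR. Of other lists, up to 4 called genes with the largest change and at least 2 FPKM were eligible; the muscle markers other than CSRP3, MYF5, MYBPH and UNC45B, and SEH1L, NUTF2, SUN1, SUN2, THOC2, FYTTD1 and SENP7, fall outside that and were chosen after their values were seen, as were the per-library values of further transport genes. Members and lists were chosen with earlier results of these data known.

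Same-numbered libraries did not deviate together (correlation of deviations over genes 0.037, 0.03 and -0.05), so the numbers were not taken as pairs. Alternatives were DESeq2 1.42.0, its size factors or library totals in edgeR, no filter, limma 3.58.1 on log2(FPKM + 1) or log2(FPKM + 0.1), a replicate block, a threshold of 0.01, and leaving out each library.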

Additional observations from a re-analysis of the deposited data

How the results depend on the processing

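The number of transport genes called lower, 32, ranged from 28 (threshold 0.01) to 34 over the other settings and from 29 to 33 with 1 library left out, and was 33 without myoblast replicate 3 and 32 with a replicate block. The calls over all genes moved as well. Of all 15959 genes tested, 4651 were called lower in the main fit, 5067 with library totals and 4381 with a replicate block. The count was 3757 of 16339 without myotube replicate 2 and 4911 of 16271 without myoblast replicate 3. The number of transport genes called higher was 2 under every alternative run. Over all genes it ran from 4204 to 5089 with 1 library left out. No called gene changed direction or moved in log2 change by over 1.5 times. Among uncalled genes, TNPO1 (0.043) turned to -0.014 with library totals alone and to -0.013 with limma at either pseudocount, and IPO13 (-0.083) ran from -0.156 to 0.026 with 1 library left out, the latter without myoblast replicate 3; the cause was not tested. IPO11 and XPO7 were called lower with library totals and with limma, which moved the median of all genes to -0.057 at most. In the lists, the 2 mRNA export genes called higher (THOC2 and FYTTD1) were 1 with DESeq2 or no filter, 0 with library totals or limma, and 0 to 2 with 1 library left out, and the 9 called lower were 4 to 8. The 2 SUMO genes called higher (SAE1 and SENP7) were 1 with DESeq2, its size factors, library totals, limma, no filter or the replicate block, and 1 to 2 with 1 library left out. With 3 libraries a group, small changes such as those of NUP54 and NUP88 sit near what can be called.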
